A study of Mus musculus with 20 samples.

Results

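Sox4, Sox11 and Sox12 are the 3 genes of the SoxC group, and they are described here by every peak that CUT&Tag libraries of the embryonic inner ear ganglion held in and around them. For each gene the gene body and 200 kb on each side were taken (build mm10), and all peaks that overlapped this window were collected from 14 peak lists. The 3 genes are 3 of 21883 protein-coding genes, and their windows held 572 of the 700128 peaks in all lists: 214 at Sox11, 182 at Sox4 and 176 at Sox12. CUT&Tag uses an antibody to bring a transposase to a chromatin protein or histone modification, so that the DNA next to it is cut out and sequenced.

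All libraries came from C57BL/6J mouse embryos at E11.5, and the dissected tissue carries the label CVG, which in inner ear work stands for the cochleovestibular ganglion, the source of the auditory and vestibular neurons. No mutant or treated group is among the 20 samples, so the only groups are the antibody targets. There were 4 libraries against ISL1 (ISL1_26 replicate 1 and ISL1_70 replicates 1 to 3), 2 against POU4F1, 2 against H3K4me3, 3 against H3K27me3 and 3 against H3K27ac, while the 6 IgG samples were left out (not analysed here). What 26 and 70 mean is not stated in the labels, and neither is it said if the libraries of a target are from separate embryos. The tissue is a mixture of cells, and a peak does not tell which of them carried the mark or factor.

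SoxC proteins are transcription factors that bind DNA through an HMG box and carry an activating domain at their C terminus. They are made in progenitors and young neurons of many parts of the nervous system, where they promote neuronal differentiation and survival and partly stand in for one another, and SOX4 and SOX11 are the stronger activators. ISL1, a LIM homeodomain factor, and POU4F1, a POU homeodomain factor, are made in young sensory neurons. H3K4me3 marks promoters, H3K27ac marks active promoters and enhancers, and H3K27me3 marks chromatin silenced by Polycomb proteins. Through the series title the study asks how ISL1 and POU4F1 interact in inner ear neurons, and for the SoxC genes this becomes the question of where both factors and the marks lie around them.

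The 3 loci differ in their surroundings. Sox11 (gene ID 20666) is at chr12:27334268-27342718, is 8451 bp long and has no other protein-coding gene in its window, only 4 lncRNA genes. Sox4 (gene ID 20677) is at chr13:28948919-28953699, is 4781 bp long and also has no protein-coding neighbour, but 8 lncRNA genes, of which Gm46405 overlaps it. Sox12 (gene ID 20667), at chr2:152393611-152398046 and 4436 bp long, shares its window with 16 other protein-coding genes, among them 9 beta-defensin (Defb) genes that encode antimicrobial peptides. All 3 genes lie on the minus strand. Positions below are in kb from the gene start, negative before the start and positive in the direction of transcription.

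The 250 bases before each start are shown because the peaks at the starts differ between the genes. They are RefSeq sequences of assembly GRCm38.p6, minus strand, written 5′ to 3′ up to the base before the gene start. Capitals mark CCAAT on either strand (ATTGG is its reverse complement), a promoter element bound by the NF-Y factor.
Sox11, chr12:27342719-27342968: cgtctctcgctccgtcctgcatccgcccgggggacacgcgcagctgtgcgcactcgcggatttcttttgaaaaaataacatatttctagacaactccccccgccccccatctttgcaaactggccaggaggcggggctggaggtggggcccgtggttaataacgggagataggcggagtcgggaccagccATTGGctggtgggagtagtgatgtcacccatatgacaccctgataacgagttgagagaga
Sox4, chr13:28953700-28953949: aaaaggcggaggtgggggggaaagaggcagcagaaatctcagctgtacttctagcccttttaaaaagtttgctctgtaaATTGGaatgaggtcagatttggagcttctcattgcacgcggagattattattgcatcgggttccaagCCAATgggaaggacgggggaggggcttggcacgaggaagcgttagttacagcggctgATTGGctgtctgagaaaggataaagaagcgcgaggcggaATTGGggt
Sox12, chr2:152398047-152398296: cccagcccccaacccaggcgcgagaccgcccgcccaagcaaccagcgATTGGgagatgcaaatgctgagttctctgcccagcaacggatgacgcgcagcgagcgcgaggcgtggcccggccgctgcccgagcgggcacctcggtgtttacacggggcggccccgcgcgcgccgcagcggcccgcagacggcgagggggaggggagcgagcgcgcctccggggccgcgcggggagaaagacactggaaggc
The Sox11 stretch was touched by peaks of 6 libraries (ISL1_26 replicate 1, ISL1_70 replicate 2, H3K4me3 replicate 2 and all 3 of H3K27ac). Peaks of 3 libraries touched the Sox12 stretch (H3K4me3 replicate 2, H3K27ac replicates 2 and 3) and peaks of 2 the Sox4 stretch (H3K27ac replicates 1 and 2). GC content was 74.4% at Sox12, 58% at Sox11 and 50.8% at Sox4, beside a median of 52.4% over 32851 promoters, and CG pairs numbered 35, 17 and 11, beside a median of 6.

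Sox4 held 4 CCAAT matches in these 250 bases, with first bases at −171, −104, −47 and −8, while Sox11 held 1 (−60) and Sox12 1 (−203). CCAAT occurred at least 1 time in 33.8% of all promoter stretches of this length, and the share with 4 or more matches was not counted. In the full 300-base promoter window, which runs 50 bases past the start, no match on either strand was found at any of the 3 genes for CTAATTG or CTAATGG (LIM homeodomain type; in 1.98% and 2.00% of all promoters), ATAATTAAT (POU4F type; 0.274%), AACAAAG or AACAATG (SOX type; 5.85% and 3.78%) or TATAAA (13.6%). The E box CANNTG matched 2 times at Sox11 and 1 time each at Sox4 and Sox12, and 72.3% of all promoters hold it. CCAAT and TATAAA were added to the search after the sequences had been seen, and a letter match is a description of the sequence only.

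The starts of all 3 genes carried H3K27ac and H3K4me3 but no replicated H3K27me3, and the Sox11 start also carried ISL1 in all 4 libraries. A replicated region is a stretch of merged peaks (overlap of at least 1 bp) to which 2 or more libraries of the same target contributed. Replicated H3K27ac lay within 1 kb of the start at 3 of 3 SoxC genes, beside 46.9% of all 17491 protein-coding genes with a known start. H3K4me3 replicate 2 had a peak there at 3 of 3 (41.1% of all genes), but a replicated H3K4me3 region lay at 0 of 3 (6.82%), since H3K4me3 replicate 1 had none there. No SoxC start lay within 1 kb of a replicated H3K27me3 region, and since 18.3% of all genes had one, this absence is also the state of most genes.

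At the Sox11 start, 10 of the 14 libraries had a peak within 1 kb, a number reached by 1.64% of all genes. Sox12 had 6 (26.2% of genes had at least as many) and Sox4 had 5 (39.0%). Without H3K4me3 replicate 1 and H3K27me3 replicate 1, the libraries described next as standing apart, the numbers were 9, 6 and 5. The map of peaks close to the starts shows these libraries line by line.

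**Figure D1:**
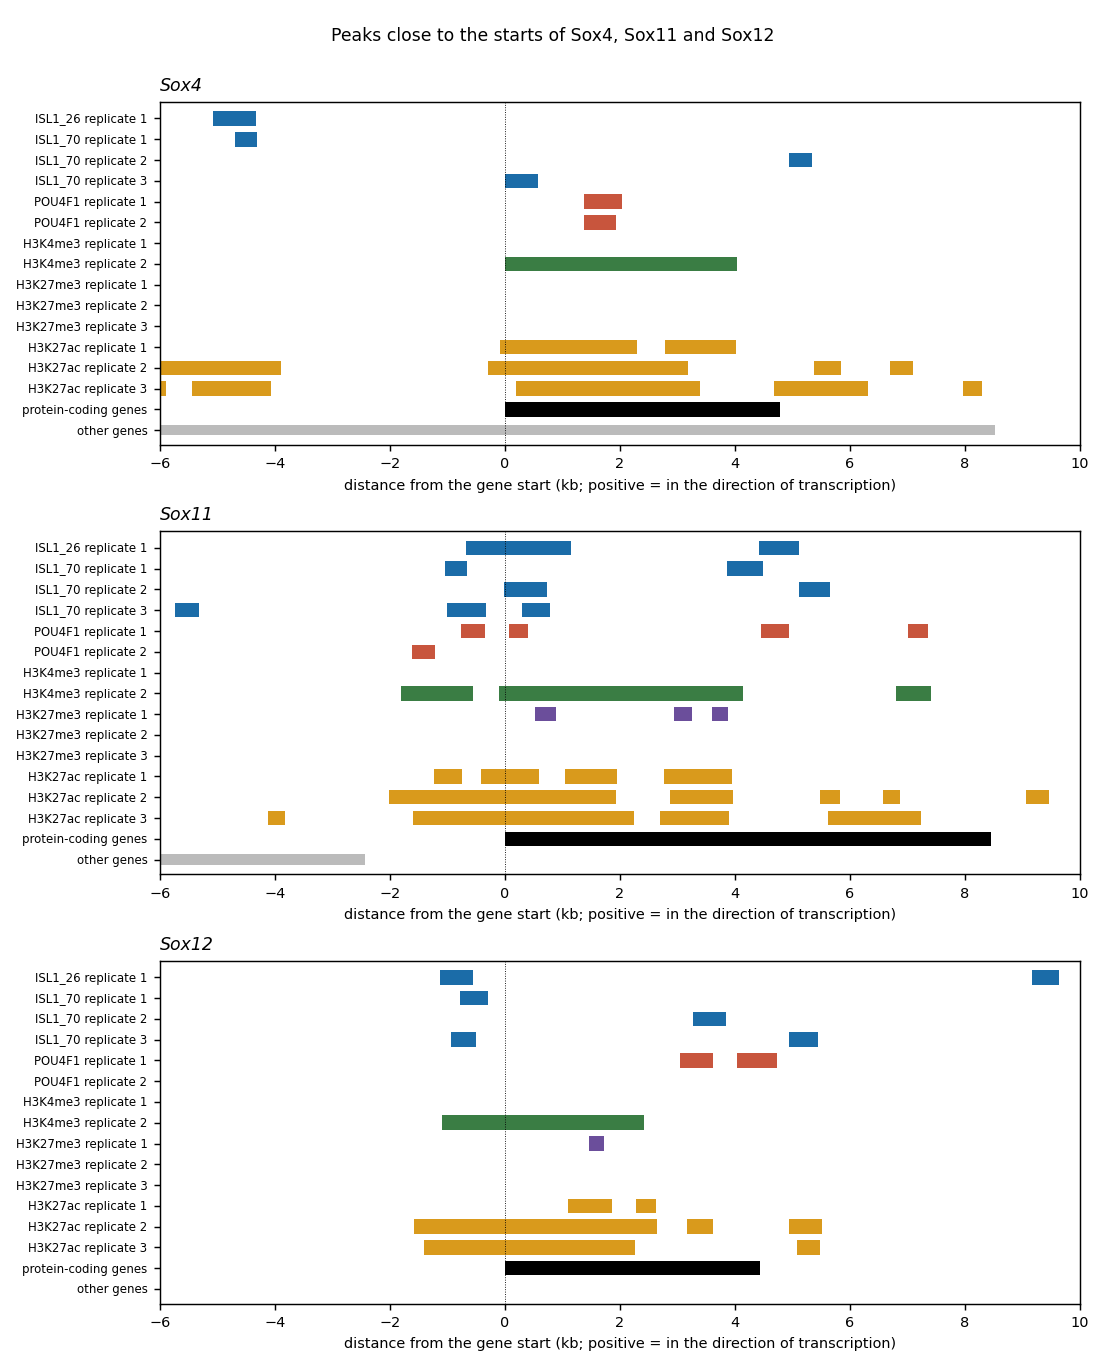
Peaks from 6 kb before to 10 kb after the start of Sox4, Sox11 and Sox12, with distance from the start in kb on the x axis and the 14 libraries on the y axis. Coloured bars are peaks at their true width, the black bar is the gene and grey bars are other genes. At Sox11 bars of all 4 ISL1 libraries and of POU4F1 replicate 1 lie at the start, at Sox12 ISL1 bars of 3 libraries lie just before it, and at Sox4 the ISL1 bar at the start belongs to ISL1_70 replicate 3.

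The lists held between 8855 (H3K27ac replicate 1) and 168144 peaks (H3K27ac replicate 3), and the sequencing depth behind them is unknown, so folds and raw peak counts were not compared between libraries. H3K4me3 replicate 1 went against its label: 87.4% of its peaks overlapped H3K27me3 replicate 3, 72.0% H3K27me3 replicate 2 and 13.3% H3K4me3 replicate 2. The H3K4me3 libraries are therefore given one by one. H3K27me3 replicate 1 had a median −log10 q of 1.09, at the edge of the threshold of 1 at which every list ends, and 32.1% of its peaks overlapped H3K27me3 replicate 3. As a check of the tissue, replicated H3K27ac lay at the start of 9 of 10 ganglion neuron marker genes, 3 of 5 glia and neural crest, 3 of 5 otic epithelium, 1 of 5 mesenchyme, 2 of 5 endothelium and blood, and 1 of 5 muscle and liver genes. The share over all genes with a known start was 46.9%. Where the promoter table gives no start, both gene ends were searched, which widens the place where a region can count. This was so for 1 ganglion neuron, 4 glia and neural crest, 1 otic, 1 mesenchyme, 2 endothelium and blood, and 1 muscle and liver gene.

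The ISL1 region at the Sox11 start, chr12:27341574-27343765 (2192 bp, from −1.05 to 1.14 kb), joined peaks of all 4 ISL1 libraries. An ISL1 region called in all 4 libraries lay within 1 kb of the start at 0.743% of all genes, and of 20413 replicated ISL1 regions in the genome 7.58% were called in all 4; 21.5% of all genes had such a region anywhere in the window. The peaks did not share 1 summit. The peak of ISL1_26 replicate 1 spanned the start with its summit at −0.17 kb, a fold enrichment over local background of 32.7 (as the authors' caller gave it) and a place in the highest 2.18% of its list by fold. ISL1_70 replicate 2 had its summit at 0.436 kb (fold 3.72, highest 97.9%) and ISL1_70 replicate 1 at −0.717 kb (fold 2.31, highest 99.8%). ISL1_70 replicate 3 had 2 peaks, with summits at 0.305 kb (fold 4.46, highest 89.0%) and −0.606 kb (fold 2.64, highest 96.5%).

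Thus 1 of the 4 libraries ranked this site high, and the ISL1_70 libraries placed it near the end of their lists. Without ISL1_26 replicate 1 the region fell apart into chr12:27341930-27342730 (801 bp) and chr12:27343050-27343765 (716 bp), each with peaks of 2 libraries. Leaving out any other ISL1 library left 1 region with 3 libraries.

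POU4F1 lay on both sides of the Sox11 start, inside the same ISL1 region, in POU4F1 replicate 1 only, whose list had a peak within 1 kb of the start at 10.2% of all genes. Its peaks there had summits at −0.562 kb (fold 61.4, highest 6.36% of the list) and 0.233 kb (fold 38.9, highest 30.0%). Peaks of all 4 ISL1 libraries and of POU4F1 replicate 1 came together within 1 kb of the start at 0.28% of all genes. In POU4F1 replicate 2 the nearest summit was at −1.22 kb (fold 24.1, highest 21.6%), in a peak that overlapped no ISL1 peak.

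H3K27ac and H3K4me3 covered the Sox11 start on both sides. H3K27ac formed a region of 4265 bp, chr12:27340470-27344734, called in all 3 libraries, with the peak of H3K27ac replicate 3 in the highest 0.133% of its list (fold 74.4), that of replicate 2 in the highest 0.652% (fold 47.0) and that of replicate 1 in the highest 14.5% (fold 29.5). H3K4me3 replicate 2 covered 4236 bp from −0.102 to 4.13 kb (fold 11, highest 49.1%) and a further 1258 bp before the start (fold 11.2, highest 49.0%). The −log10 q of these peaks was 84.8 and 36.8, beside a list median of 17.7. Peaks of all 3 H3K27ac libraries and H3K4me3 replicate 2 came together at the start at 19.7% of all genes. H3K27me3 replicate 1 had peaks in the gene with summits at 0.704, 3.10 and 3.73 kb, each with a fold of 1.99 and a −log10 q of 1.09, and its list had a peak within 1 kb of the start at 27.9% of all genes.

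At Sox4 the start carried the strongest H3K4me3 of the 3 genes within the list of H3K4me3 replicate 2. Its peak ran from 0.002 to 4.03 kb with a fold of 173, in the highest 0.326% of the list, and covered most of this single-exon gene. H3K27ac peaks at the start ranked in the highest 12.1% (replicate 1, fold 32.4), 2.04% (replicate 2, fold 32.0) and 44.8% (replicate 3, fold 6.43) of their lists. The peak of replicate 3 had a −log10 q of 48.4, beside a list median of 6.97. Of the ISL1 libraries ISL1_70 replicate 3 alone had a peak within 1 kb of the Sox4 start, with its summit at 0.223 kb (fold 15.0, highest 62.0%). By −log10 q this peak stood higher, at 149 beside a list median of 77.2.

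Inside Sox4 lay the only replicated POU4F1 region of the 3 windows. It spans chr13:28951657-28952331 (675 bp, centred at 1.71 kb) in the body of Sox4 and of the overlapping lncRNA gene Gm46405. The summits were at 1.71 kb in POU4F1 replicate 1 (fold 12.9, highest 78.4% of the list) and at 1.65 kb in replicate 2 (fold 17.7, highest 36.1%), so the calls share their place and neither is near the top of its list. Their −log10 q was 21.5 in replicate 1 and 32.0 in replicate 2, beside list medians of 64.8 and 22.6. At the same place were all 3 H3K27ac libraries and H3K4me3 replicate 2, and no ISL1 peak. The genome held 545 replicated POU4F1 regions, 11% of all protein-coding genes had at least 1 in such a window, and Sox4 was 1 of 3 SoxC genes with one. It was lost (0 regions) with the 10000 highest peaks per list. Within 1 kb of the start, a replicated POU4F1 region lay at 0 of 3 SoxC genes and at 0.48% of all genes.

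Sox12 had ISL1 just before its start and POU4F1 inside the gene. The ISL1 region chr2:152398337-152399182 (846 bp, centred at −0.713 kb) was called in ISL1_26 replicate 1 (fold 16.2, highest 12.6%), ISL1_70 replicate 1 (fold 13.2, highest 28.5%) and ISL1_70 replicate 3 (fold 5.75, highest 85.0%). An ISL1 region of 3 or more libraries lay within 1 kb of the start at 3.54% of all genes, and a replicated one at 14.5%. It lay under H3K27ac and under the Sox12 peak of H3K4me3 replicate 2, which was 3.51 kb wide with a fold of 144 (highest 0.731%). The H3K27ac peaks at the Sox12 start ranked in the highest 2.39% (replicate 2, fold 30.3) and 0.587% (replicate 3, fold 50.2) of their lists, and replicate 1 had no peak within 1 kb.

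The POU4F1 peak in the Sox12 body, chr2:152394422-152394996, had its summit at 3.51 kb and was among the highest 4.27% of POU4F1 replicate 1 (fold 69.8). It overlapped a peak of ISL1_70 replicate 2. POU4F1 replicate 2 had no summit within 20 kb of the Sox12 start, the nearest being at 20.0 kb.

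Over the whole windows, peak numbers were set against the peak density of all protein-coding genes in the same library, as the percent of genes with a lower density. ISL1 was dense around Sox11, with 29 peaks in ISL1_26 replicate 1 and 26, 8 and 8 in ISL1_70 replicates 1 to 3, which stood above 90.5%, 92.6%, 85.8% and 59.4% of genes. Sox4 had 18, 21, 8 and 8 ISL1 peaks (above 56.5%, 81.3%, 86.5% and 60.6% of genes). Sox12 had 20, 18, 2 and 7 (above 65.7%, 70.1%, 21.6% and 51.5%), so that the order Sox11, Sox4, Sox12 did not hold in every library. With 50 kb on each side the median over the ISL1 libraries was 43.6% at Sox4 in place of 70.9%.

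POU4F1 peaks were numerous at all 3 genes in replicate 1, with 12 at Sox12, 11 at Sox11 and 9 at Sox4 (above 95.8%, 93.1% and 85.1% of genes). In replicate 2 the numbers were 5, 8 and 10 (above 57.2%, 89.0% and 96.9%). The order of the genes was thus opposite in the 2 libraries, and no order can be read from them.

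Peaks of H3K27me3 were missing from the Sox11 window in 2 of 3 libraries. H3K27me3 replicates 2 and 3 and H3K4me3 replicate 1 had no peak in the Sox11 window, while the median gene had 3, 8 and 3. The same absence held for 7.1% of all genes, which makes it an uncommon state but not one of Sox11 alone. Sox4 had 2 peaks in each of these 3 libraries, and Sox12 had 2, 16 and 3. H3K27me3 replicate 1 had 6 peaks at Sox11, 2 at Sox4 and 4 at Sox12 (above 62.5%, 29.0% and 48.0% of genes). H3K4me3 replicate 2 had 5, 5 and 11 (above 47.9%, 48.9% and 84.5%). The Sox12 window holds 16 other protein-coding genes, and a link between them and this count was not tested.

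H3K27ac peaks numbered 4, 59 and 50 at Sox11 in replicates 1 to 3 (above 74.4%, 90.7% and 68.6% of genes), 2, 43 and 50 at Sox4 (above 50.8%, 78.6% and 69.1%) and 4, 26 and 46 at Sox12 (above 75.5%, 56.9% and 64.2%). With 50 kb on each side the median over the 3 libraries was 84.8% at Sox12 in place of 64.2%. The plot of these ranks shows the 3 genes side by side in each library.

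**Figure D2:**
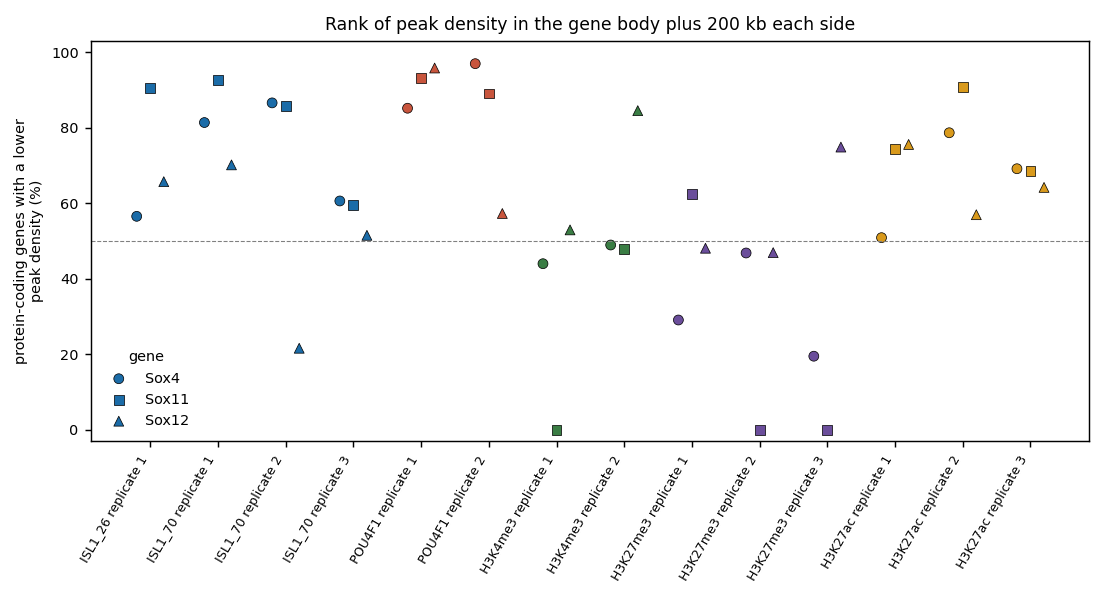
Percent of the 21883 protein-coding genes with a lower peak density in the gene body plus 200 kb each side (y axis), for each of the 14 libraries (x axis, coloured by target). Circles are Sox4, squares Sox11 and triangles Sox12, and the dashed line is the middle gene. Sox11 stands at 0 in H3K4me3 replicate 1 and H3K27me3 replicates 2 and 3, and all 3 genes lie above the line in both POU4F1 libraries.

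Replicated ISL1 regions numbered 9 at Sox11, 7 at Sox4 and 4 at Sox12, and the median protein-coding gene had 4. At least 1 such region was present at 86.7% of all genes, so having one says little, and 14.7% of genes had as many as Sox11, 25.0% as many as Sox4 and 50.7% as many as Sox12. Sox12 is thus a middle gene by this count. Among starts of protein-coding genes, the nearest was the member's own for 9 of 9 regions at Sox11, 7 of 7 at Sox4 and 1 of 4 at Sox12. The Sox11 and Sox4 windows hold no other protein-coding gene, so their counts say little. Starts of the lncRNA genes there were not searched. Without ISL1_26 replicate 1 the counts were 3 at Sox11, 2 at Sox4 and 2 at Sox12, and without ISL1_70 replicate 1 they were 5 at Sox11 and 2 at Sox4. When each list was limited to its 10000 highest peaks they were 2, 1 and 1.

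Most ISL1 sites of the windows were seen in a single library, namely 47 of 56 merged regions at Sox11, 40 of 47 at Sox4 and 37 of 41 at Sox12. The genome share was 90.5%, beside 83.9%, 85.1% and 90.2% at the 3 genes.

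Regions of 3 or more libraries were 4 of 9 at Sox11, 1 of 7 at Sox4 and 2 of 4 at Sox12, beside 25.3% over the genome, and a window with at least 1 such region was that of 50.8% of all genes. Beyond its start, Sox11 had 3 ISL1 regions called in 3 libraries. The most distant, chr12:27535716-27538532 (2817 bp, centred at −194 kb, between genes), had its best-ranked peak in ISL1_70 replicate 1 (fold 42.2, highest 1.33%) and lay under H3K27ac. A further one, chr12:27293169-27294379 (1211 bp, at 48.9 kb, in the lncRNA gene Gm52005), ranked in the highest 2.50% of ISL1_26 replicate 1 (fold 31.2) and the highest 3.96% of ISL1_70 replicate 1 (fold 29.0), again under H3K27ac. The last, chr12:27337072-27338858 (1787 bp, at 4.75 kb), lay inside Sox11 with a POU4F1 replicate 1 peak (fold 43.8, highest 22.8%). The single highest-ranked ISL1 peak of the window, in the highest 0.524% of ISL1_70 replicate 1 (fold 56.4), lay in a region of 2 libraries at −103 kb, chr12:27445089-27446856, which had no replicated H3K27ac.

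At Sox4 the only replicated ISL1 region called in 3 libraries lay far downstream, chr13:28838971-28840466 (1496 bp, at 114 kb), in the body of the 425 kb lncRNA gene 2610307P16Rik. It was called in ISL1_26 replicate 1 (fold 21.9, highest 6.62%), ISL1_70 replicate 2 (fold 8.14, highest 86.6%) and ISL1_70 replicate 3 (fold 1.88, highest 98.9%), under H3K27ac, and with a mean rank of 64.0% it stood below other regions of the window that were called in 2 libraries. The region nearest to the gene, chr13:28958016-28958784 (769 bp, at −4.70 kb, in Gm46405), was called in ISL1_70 replicate 1 (fold 29.9, highest 3.56%) and ISL1_26 replicate 1 (fold 13.3, highest 21.2%), also under H3K27ac. At −196 kb, chr13:29149775-29150290 (516 bp) ranked in the highest 5.92% and 6.31% of the same libraries and held a POU4F1 replicate 1 peak (fold 51.6). The next by rank were chr13:29048510-29049175 (at −95.1 kb, under H3K27ac) and chr13:29005976-29006548 (at −52.6 kb).

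At Sox12 the strongest ISL1 region was not at the gene itself. It was chr2:152435477-152436831 (1355 bp, at −38.1 kb) inside the neighbouring gene 6820408C15Rik, over a start listed for that gene, in the highest 0.159% of ISL1_70 replicate 1 (fold 86.1), 0.640% of ISL1_26 replicate 1 (fold 50.3) and 34.8% of ISL1_70 replicate 3 (fold 28.8). It overlapped a POU4F1 replicate 1 peak (fold 13.0, highest 78.3%) and had no replicated H3K27ac. The other 2 regions lay beside Defb29, chr2:152540066-152540556, and at the start of Csnk2a1, the gene of a catalytic subunit of casein kinase 2, chr2:152226462-152227679.

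ISL1 and H3K27ac came together at 6 of 9 regions at Sox11, 3 of 7 at Sox4 and 2 of 4 at Sox12. Over the genome 47.5% of replicated ISL1 regions overlapped replicated H3K27ac, so these counts lie on both sides of the background. Without ISL1_26 replicate 1 they were 3 at Sox11, 1 at Sox4 and 1 at Sox12, without ISL1_70 replicate 1 Sox12 had 1, and without H3K27ac replicate 2 or 3 Sox11 had 2 and Sox4 had 0. A POU4F1 replicate 1 peak lay in 2 of 9 regions at Sox11, 3 of 7 at Sox4 and 1 of 4 at Sox12, or 6 of 20, beside 14.4% over the genome. For POU4F1 replicate 2 it was 0 of 20 (3.48% over the genome), and for replicated H3K27me3 0 of 20 (6.94%).

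The Sox4 regions with POU4F1 replicate 1 that have not been named were chr13:29015065-29016000 (at −61.8 kb, in the lncRNA gene A330102I10Rik, POU4F1 fold 43.3) and chr13:28799897-28800446 (at 154 kb, in 2610307P16Rik, POU4F1 fold 7.96). Of the replicated ISL1 regions with a POU4F1 replicate 1 peak, 0 of 3 at Sox4, 2 of 2 at Sox11 and 0 of 1 at Sox12 overlapped replicated H3K27ac. The Sox12 region and the Sox4 region at −196 kb each overlapped a peak of 1 H3K27ac library. The share over the genome was not counted for such regions.

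**Figure D3:**
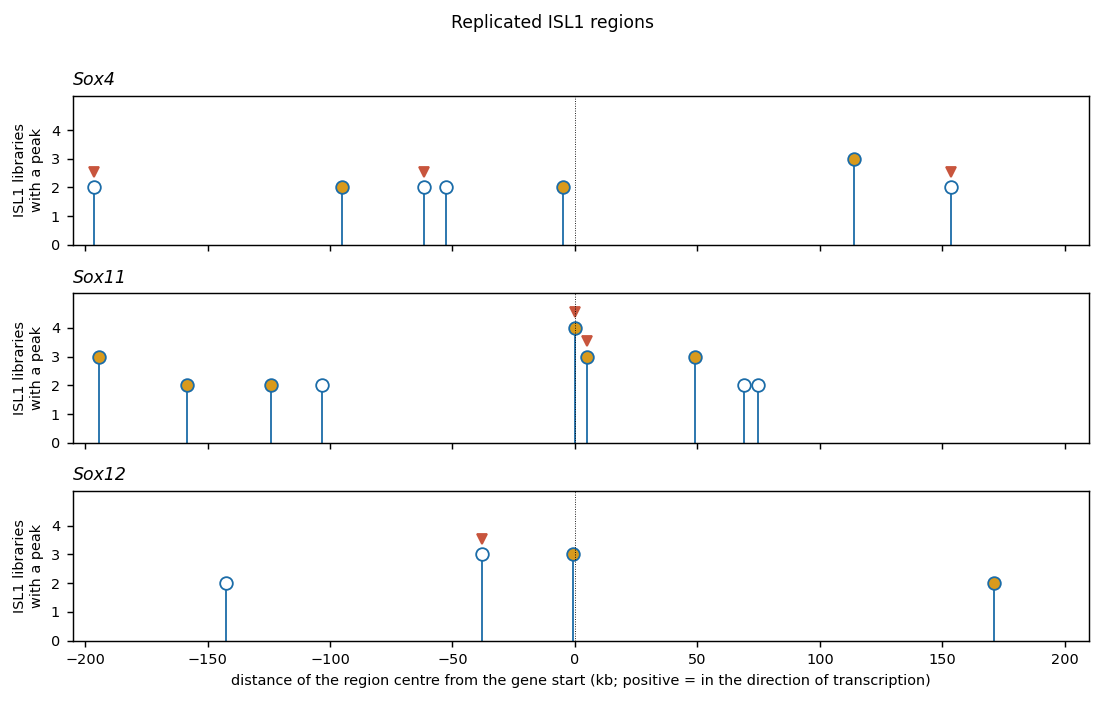
Replicated ISL1 regions around Sox4, Sox11 and Sox12, with the distance of the region centre from the gene start in kb on the x axis and the number of ISL1 libraries with a peak on the y axis. Filled circles overlap replicated H3K27ac, open circles do not, and red triangles mark regions with a POU4F1 replicate 1 peak. The tallest line, with 4 libraries, stands at the Sox11 start.

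Acetylated regions spread widely around Sox11 and Sox4. Replicated H3K27ac regions numbered 24 at each of these and 15 at Sox12, beside a median of 11 for all genes; 22.1% of genes had at least 24 and 41.7% at least 15. These regions rest on H3K27ac replicates 2 and 3 together, since without either one 2 were left at Sox11, 1 at Sox4 and 3 at Sox12, and with the 10000 highest peaks per list 3, 2 and 6. Around Sox12, 13 of the 15 had another gene's start as the nearest protein-coding start. Among them were 5 with Rbck1, a subunit of a ubiquitin ligase complex, and 3 with Tbc1d20, a regulator of Rab GTPases. A single broad region of 5557 bp, chr2:152410250-152415806, ran over Zcchc3, a zinc finger gene, at −15.0 kb.

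The H3K27ac regions of Sox4 lay mostly on 1 side. Of 24, 20 were downstream, 2 upstream and 2 overlapped the gene. In 2610307P16Rik, whose nearest edge lies 68.3 kb downstream of the Sox4 start, lay 19. At Sox11 12 were downstream, 9 upstream and 3 overlapped the gene. Many downstream Sox11 regions were grouped far from the gene, with centres from 160 to 208 kb, several in the lncRNA genes Gm9866 and Gm40872. The map of all peaks in the windows shows the row of H3K27ac peaks on the right of Sox4 and peaks on both sides of Sox11.

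**Figure D4:**
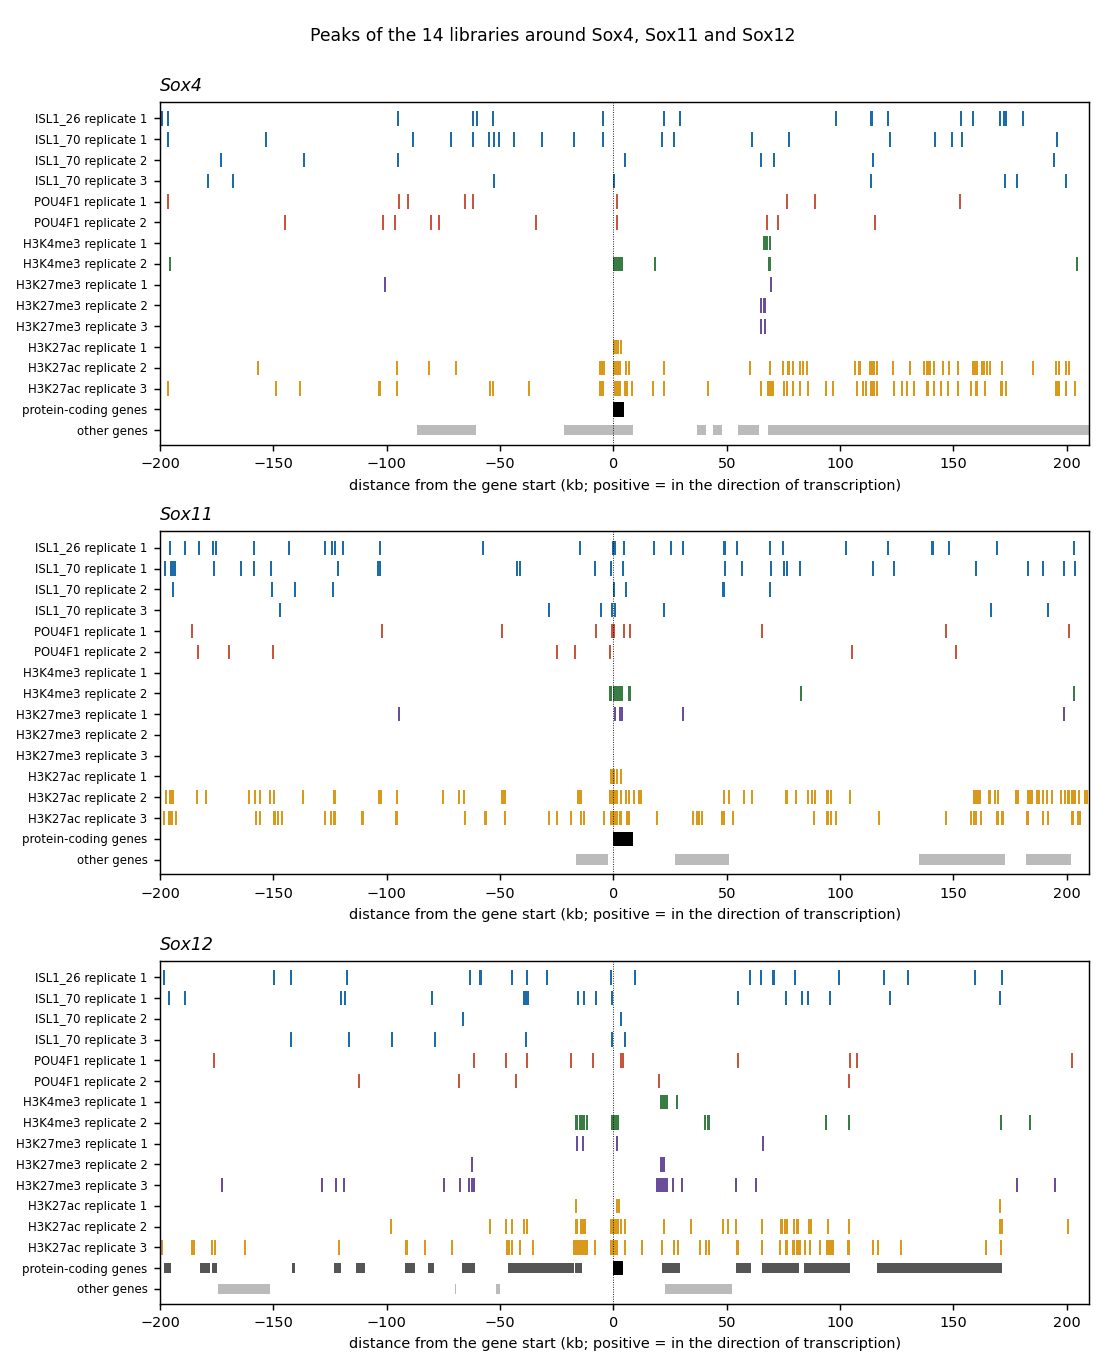
All peaks of the 14 libraries (y axis) from 200 kb before to 210 kb after the start of Sox4, Sox11 and Sox12 (x axis, kb). Coloured bars are peaks, drawn at least 0.9 kb wide so that they can be seen, the black bar is the gene, dark grey bars are other protein-coding genes and light grey bars other genes. The H3K4me3 replicate 1 and H3K27me3 replicate 2 and 3 lines are empty at Sox11, and at Sox4 they hold bars near 67 kb.

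Replicated H3K27me3 at Sox4 lay in a short stretch before the edge of 2610307P16Rik that is nearest to Sox4. The wider of 2 replicated regions was chr13:28886150-28887483 (1334 bp, at 66.9 kb), with the peak of H3K27me3 replicate 2 in the highest 27% and that of replicate 3 in the highest 29.2% of their lists. The other was chr13:28888220-28888713 (494 bp, at 65.2 kb). Directly beyond, over this edge of the lncRNA gene, lay the only replicated H3K4me3 region of the 3 windows, chr13:28884340-28885428 (1089 bp, at 68.8 kb). It joins H3K4me3 replicate 1, the library that goes against its label, with replicate 2. The strand of the lncRNA gene was not read, so the edge can be its start or its end.

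Sox12 also had 2 replicated H3K27me3 regions and neither was at Sox12. The wider, chr2:152373975-152377930 (3956 bp, at 22.1 kb), lay over Nrsn2, the gene of the neuronal vesicle protein neurensin-2, and the other over Defb23. The counts of 2 at Sox4 and at Sox12 became 0 without H3K27me3 replicate 2 or replicate 3, and 0 and 1 with the 10000 highest peaks per list. Sox11 had none, as had 24.0% of all genes. A gene body free of replicated H3K27me3, the state of all 3 SoxC genes, was that of 77.1% of all genes.

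The SoxC genes were set beside 15 other Sox genes, which include neural progenitor factors such as Sox2 and Sox21 and glial factors such as Sox10, by the same features at the start. Among these 15, 8 had replicated H3K27ac, 7 had H3K4me3 replicate 2 and 12 had replicated H3K27me3, and 1 (Sox5) had replicated ISL1. For 5 of them the start is not given in the promoter table and both gene ends were used. POU4F1 replicate 1 had a peak at 2 of the 15 and at 1 of the 3 SoxC genes (10.2% of all genes). For replicate 2 it was 2 of the 15 and 0 of the 3 (6.31%).

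A second list held 12 neuronal genes tied to SoxC proteins as targets, partners or upstream factors, 2 of them (Stmn2 and Rest) searched at both gene ends. H3K27ac was replicated at 10 of these starts, H3K4me3 replicate 2 lay at 9, replicated H3K27me3 at 9 and replicated ISL1 at 2, namely the proneural gene Neurog1 and Pou3f2, a POU factor gene of neuronal progenitors. The 3 without H3K27me3 were Dcx and Map2, which encode microtubule-associated proteins of neurons, and Tead2, a transcription factor gene. POU4F1 replicate 1 had a peak at 7 of the 12 starts, Stmn2 and Rest among them, and replicate 2 at 2 of the 12. Over all genes these shares were 10.2% and 6.31%. Among 10 ganglion neuron marker genes 9 had replicated H3K27ac and 9 replicated H3K27me3 at the start (46.9% and 18.3% of all genes). Ntrk3 lacked the first mark and Elavl4 the second, while the other markers had both in this mixed tissue. No SoxC start had both, and since 18.3% of all genes had H3K27me3 there, this is also the state of most genes. Elavl4, Dcx, Map2 and Tead2 likewise had H3K27ac without H3K27me3. So did Sox5 and Sox13 of the other Sox genes, Pecam1 and Gata1 of endothelium and blood, and the muscle gene Myog. The share of all genes with both marks, or with H3K27ac and no H3K27me3, was not counted.

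**Figure D5:**
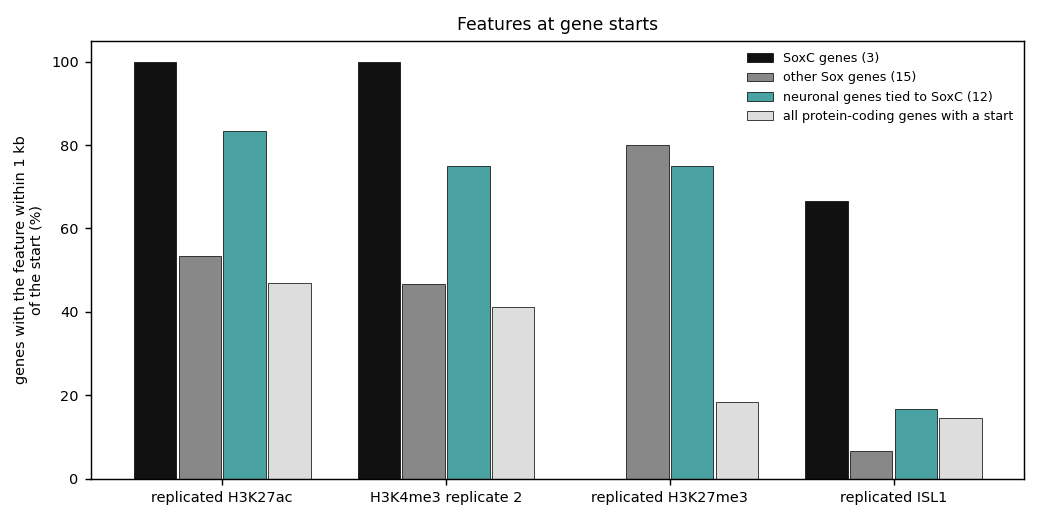
Share of genes with each feature within 1 kb of the start (y axis, percent; bars start at 0) for the 3 SoxC genes, 15 other Sox genes, 12 neuronal genes tied to SoxC proteins and all 17491 protein-coding genes with a start. Bars of the 3 SoxC genes stand at 100% for H3K27ac and H3K4me3 replicate 2, at 0% for H3K27me3 and at 66.7% for ISL1, and each rests on 3 genes. Both gene ends were searched for 5 of the other Sox genes and 2 of the neuronal genes.

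The 3 loci were not closest to one another in their pattern over the 14 libraries. Likeness was the mean absolute difference between the density percents of 2 genes. Sox11 and Sox4 differed by 17.4 percentage points, Sox12 and Sox4 by 22.5 and Sox12 and Sox11 by 29.9, while the median over all genes was 37.4 from Sox11, 30.7 from Sox4 and 27.5 from Sox12. By this measure Sox4 was gene 230 in the order from Sox11. The nearest genes were Aftph (7.88), Odc1 (7.90) and Lgalsl (8.47) for Sox11, Ank3 (9.13), Cbx3 (9.23) and 1500009L16Rik (9.33) for Sox4, and Stam2 (8.28), Nrip2 (9.41) and Champ1 (9.46) for Sox12.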

How the data were processed

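CUT&Tag was done on E11.5 mouse CVG tissue, and the 14 peak lists with 1 library each were used. Per the file headers (the peak names), MACS2 was run with a control that no source used here identifies. Build mm10 and the tools Bowtie2, FastQC and SEACR are named, without their roles, per the submitters' processing notes. The deposited columns hold each peak's fold (a ratio to local background), its p-value and q-value on a −log10 scale, and its summit, as the authors' caller gave them. The lowest −log10 q in each list is 1. These values ranked or filtered peaks within a list only.

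Peaks of a target were merged at 1 bp of overlap, and at least 2 libraries made a region replicated. Genes came from a RefSeq table of GRCm38.p6, and starts and promoters from a matching RefSeq promoter table, in which all 3 members were found. Counts were set beside the same counts over all protein-coding genes. No statistical test compared genes, regions or targets, since depth is unknown, lists differ in length and regions of 1 locus are not replicates. Dixon's outlier check, given below, was run only between the ISL1 libraries at each gene. The members, the gene lists and the rules were chosen with earlier results of these data known. Named regions were the first 5 replicated ISL1 regions per gene (by number of libraries, then mean rank by fold), every replicated POU4F1 region, every region with ISL1 and POU4F1, and the widest H3K27me3 region. Likeness named the 3 nearest genes over 1 Mb away. Other single peaks named at the starts and in the gene bodies were chosen after their values were seen. Merging and counting were checked on simulated intervals (Python 3.11.15, pandas 2.3.3, numpy 2.4.6). Alternatives were a −log10 q of at least 2, the 10000 highest peaks per list, an overlap of 100 bp, windows of 50 and 100 kb, 2 kb at the start, and leaving out each library.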

Additional observations from a re-analysis of the deposited data

Results flagged for a closer look

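Per 10000 peaks of its list, ISL1_70 replicate 3 had 1.92 peaks in the Sox11 window, apart from the other 3 ISL1 libraries, which had between 3.03 and 3.26. Of 6 sets of 4 ISL1 values examined (2 measures at each of the 3 genes), 1 had a gap above Dixon's 95% critical value, which by its definition about 1 in 20 sets would pass by chance.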

How the results depend on the processing

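Apart from leaving out a single library, 58 of 71 values under another setting stayed within 1.5 times the reported count or within the spread of the libraries. With the 10000 highest peaks per library, replicated ISL1 regions were 1, 2 and 1 at Sox12, Sox11 and Sox4, H3K27ac regions 6, 3 and 2, H3K27me3 regions 1 at Sox12 and 0 at Sox4, and the POU4F1 region in Sox4 was lost (0). With 50 kb windows, the median percent of genes with a lower ISL1 density fell at Sox4 from 70.9 to 43.6, and for H3K27ac it was 50.8 at Sox4 in place of 69.1 and 84.8 at Sox12 in place of 64.2 (83.6 with 100 kb). The cause was not tested.

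Leaving out each library in turn, replicated ISL1 regions ranged from 2 to 4 at Sox12, 3 to 9 at Sox11 and 2 to 6 at Sox4. The lowest came without ISL1_26 replicate 1, and without ISL1_70 replicate 1 Sox11 had 5 and Sox4 had 2. H3K27ac regions ranged from 3 to 15, 2 to 24 and 1 to 24, lowest without H3K27ac replicate 2 or 3, and H3K27me3 regions from 0 to 2 at Sox12 and Sox4, with 0 without replicate 2 or 3. ISL1 regions with H3K27ac ranged from 1 to 2 at Sox12, 2 to 6 at Sox11 and 0 to 3 at Sox4. With 1 POU4F1 library the count is its peaks, 5 to 12, 8 to 11 and 9 to 10. The region at the Sox11 start had 2 to 3 ISL1 libraries. The settings for the Sox11 start region, the count at the starts without 2 libraries and the 250-base motif window were added after seeing the data. No paired analysis was possible because no comparison of genes, regions or targets comes from a test. Depth is unknown, so a missing peak is not evidence of absence.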
